A study of Mus musculus with 5 samples.

Results

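The cells described here were 302 hepatocytes (parenchymal liver cells) rich in transcripts of mitosis genes, recovered 48 h after partial hepatectomy (PHx). They were 302 of the 719 hepatocytes of that library, 42.0% (95% exact binomial interval 38.4% to 45.7%, counting error only), and of 5691 hepatocytes in 5 libraries. A barcode was taken as a hepatocyte when it had at least 5000 unique molecular identifiers (UMIs), 10% to 30% of them mitochondrial, and at least 1% of them from Alb, Apoa1 and Ttr. A hepatocyte was rule-positive when 10 mitosis genes (Mki67, Top2a, Cdk1, Ube2c, Birc5, Ccnb1, Cenpf, Nusap1, Cdc20 and Tpx2) together gave at least 3 UMIs per 10000 and at least 3 of them were detected. Whether such a cell was in mitosis or in an earlier phase of the cycle was not measured. Quiet hepatocytes had under 0.5 per 10000 and numbered 289, of which 167 had no UMI of the 10 genes. The remaining 128 lay between the groups. Each rule-positive cell was paired with a quiet cell of similar total UMIs, which gave 271 pairs and left 31 rule-positive cells unmatched.

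The study sequenced dissociated liver cells of C57BL/6J mice in droplets (10x v3 kit), with 1 library per group. The groups were postnatal day 14 mice without surgery (P14), an adult control, and adult mice 24 h, 48 h and 96 h after removal of most of the liver at 8 weeks of age. All cells came from a perfusion in steps followed by removal of dead cells. How many animals stand behind a library, and of which sex, is not in the labels, so no spread between animals could be measured, and 1 library carries both its group and its preparation. The protocol text counts the adult control among the operated mice, whereas its title and source call it a control. Its description code ends in 2 and those of the others in 1. With 4 rule-positive cells, under the 20 required, it entered no test here.

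Adult hepatocytes rarely divide, but after resection of the liver they re-enter the cell cycle, copy their DNA and then divide. Genes of DNA replication are switched on early in the cycle by E2F factors. Genes of the spindle, kinetochore and cytokinesis follow later, under the B-Myb and DREAM complexes and the forkhead factor Foxm1, and their proteins are destroyed as mitosis ends. Hepatocytes can also end a cycle without dividing the cytoplasm, which gives cells with 2 nuclei or with extra chromosome sets.

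The start regions of 4 mitosis genes and 2 replication genes from the lists compared are shown because these gene groups differed in their promoter letters. The genes were picked by hand as examples and do not give the frequency of the letters in their groups. Each is 200 bases from RefSeq (GRCm38.p6), 170 before the transcription start and 30 after it, read 5′ to 3′ on the gene's strand. In the first 4, capitals mark the cell cycle homology region (TTTGAA) and the CCAAT box, on either strand. In the Mcm5 and Mcm6 regions, capitals mark the E2F letters TTCCCGC or TTGGCGC or TTCGCGC or TTGCCGC, on either strand. Ccnb2 (cyclin B2, a partner of Cdk1) lies on the minus strand at chr9:70421525-70421724. Hmmr (a spindle protein) lies on the minus strand at chr11:40733408-40733607. Prc1 (a microtubule bundler of the central spindle) lies on the plus strand at chr7:80294281-80294480, and 1 of its 2 listed starts is shown. Cdca8 (borealin, of the chromosome passenger complex) lies on the minus strand at chr4:124936888-124937087. Mcm5 and Mcm6, subunits of the replicative helicase, lie on the plus strand at chr8:75109339-75109538 and on the minus strand at chr1:128359676-128359875.
Ccnb2: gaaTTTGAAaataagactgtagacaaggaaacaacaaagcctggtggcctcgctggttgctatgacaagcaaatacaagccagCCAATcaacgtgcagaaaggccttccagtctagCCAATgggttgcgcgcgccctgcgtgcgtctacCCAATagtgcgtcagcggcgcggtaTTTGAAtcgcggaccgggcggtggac
Hmmr: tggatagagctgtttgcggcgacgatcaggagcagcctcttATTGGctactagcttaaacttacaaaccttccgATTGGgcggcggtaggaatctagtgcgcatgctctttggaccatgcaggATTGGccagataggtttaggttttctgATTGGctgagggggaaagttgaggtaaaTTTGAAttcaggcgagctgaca
Prc1: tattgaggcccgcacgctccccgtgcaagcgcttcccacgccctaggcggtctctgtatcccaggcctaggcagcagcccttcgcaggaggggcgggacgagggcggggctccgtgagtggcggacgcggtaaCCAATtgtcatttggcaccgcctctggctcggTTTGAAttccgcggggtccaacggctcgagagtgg
Cdca8: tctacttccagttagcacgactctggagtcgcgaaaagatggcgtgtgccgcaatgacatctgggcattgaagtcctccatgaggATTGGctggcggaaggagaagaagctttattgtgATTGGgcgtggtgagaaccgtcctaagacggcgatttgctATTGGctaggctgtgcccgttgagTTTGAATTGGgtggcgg
Mcm5: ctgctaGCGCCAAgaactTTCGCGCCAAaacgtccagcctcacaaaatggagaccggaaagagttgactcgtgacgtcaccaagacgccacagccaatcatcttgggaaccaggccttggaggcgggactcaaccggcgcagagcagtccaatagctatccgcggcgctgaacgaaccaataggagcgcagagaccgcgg
Mcm6: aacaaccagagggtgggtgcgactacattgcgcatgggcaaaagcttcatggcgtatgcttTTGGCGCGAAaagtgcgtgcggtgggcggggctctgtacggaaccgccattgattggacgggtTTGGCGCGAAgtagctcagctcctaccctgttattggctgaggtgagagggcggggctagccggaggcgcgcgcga
These windows hold 2, 1, 1 and 1 copies of the homology region in Ccnb2, Hmmr, Prc1 and Cdca8, and 3, 4, 1 and 4 CCAAT boxes. In Cdca8 a homology region overlaps a CCAAT box. Mcm5 has 3 E2F matches and Mcm6 has 4, some of them overlapping, and neither has a homology region.

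Over RefSeq promoters of 300 bases, the homology region occurred in 52.8% (56 of 106) of the promoters of mitosis genes at least 1.5-fold higher in rule-positive cells at 48 h. It occurred in 11.1% (3 of 27) of promoters of replication genes past that fold, in 12.7% of promoters of all genes measured there, and in 17.6% of all 32619 promoters. The E2F letters occurred in 66.7% (18 of 27) of the replication promoters, 25.5% of the mitosis promoters, 17.0% of those of measured genes and 9.64% of all. CCAAT boxes were common in every group, in 69.8% of mitosis promoters, 63.0% of replication promoters and 37.6% of all. A homology region together with a CCAAT box was found in 41.5% of mitosis promoters and in 6.97% of all. Of 25 cholesterol synthesis genes, which ran lower in rule-positive cells, 17 were in the promoter table; 1 of their 20 promoters (5.0%) held the sterol element letters TCACNCCAC, against 1.25% of all. In all, 95 of the 118 mitosis genes and 20 of the 29 replication genes matched the table. Promoters on chromosomes 18 and Y were left out of every group. A match describes letters only.

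The rule-positive cells carried the 10 genes strongly, which the rule itself required. Their summed level had a median of 14.35 UMIs per 10000 (quartiles 8.10 and 20.9, highest 33.9), all 10 genes were detected in 160 cells and at least 8 in 240. The cells just inside the limit had 3.001, 3.05 and 3.205 per 10000, and those just outside it had 2.93, 2.906 and 2.869. Mki67, the antigen carried by cycling cells, had a UMI in 96.0% of rule-positive cells (58.9% after thinning each cell to 5000 UMIs) and in 3.11% of quiet cells (0 after thinning). Ube2c, which helps mark mitotic proteins for destruction, was the most abundant of the 10 by UMIs, at 379.7 CPM in rule-positive and 4.20 CPM in quiet cells. CPM (counts scaled to 1000000 in total) are over UMIs without the 13 mitochondrial genes and the 10 rule genes. Top2a, which untangles DNA, had 159.5 and 2.71 CPM, Cdk1, the mitotic kinase, 168.1 and 3.66 CPM, and Birc5, of the chromosome passenger complex, 219.5 and 3.12 CPM. In 759 leukocyte-type barcodes of the same library (median 8501 UMIs), 9.09% had a Mki67 UMI, and the free RNA of empty droplets held 36.0 CPM of it. All 5 genes given as markers of these cells were higher in them than in the quiet cells and in the free RNA.

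Of 10 hepatocyte markers, 8 ran lower in rule-positive than in matched quiet cells, and each was above its level in the free RNA. The gate had required Alb, Apoa1 and Ttr in both classes, so their presence is no check. Alb, serum albumin, had 23490 CPM in rule-positive and 24730 CPM in quiet cells, Apoa1 5521 and 6846 CPM, and Ttr 5304 and 5396 CPM. Of the 7 the gate did not use, Hnf4a, a transcription factor of hepatocyte identity, had 229.6 and 226.9 CPM (192.9 CPM in the free RNA), and Serpina1a, a protease inhibitor, 4166 and 4134 CPM. Trf, transferrin, had 11730 and 14770 CPM, and Apob, the protein of lipoprotein particles, 1704 and 2034 CPM. Rule-positive cells were deeper, with a median of 42171.5 UMIs against 31756 in quiet cells, and they made up 36.7%, 26.1%, 43.6% and 61.7% of hepatocytes from the shallowest to the deepest quartile of UMIs. After matching, the medians were 39897 and 33189 UMIs. The mitochondrial share was 23.1% in rule-positive and 25.6% in quiet cells. Outside the gate, 78 of 363 barcodes with over 30% mitochondrial UMIs and 66 of 176 with under 10% also met the rule. Of the barcodes with the highest Scrublet doublet scores, whose number was set in advance, 3 were among the 302 rule-positive and 1 among the 289 quiet cells.

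Markers of other cell types differed between the classes for some types. Summed over matched cells, erythroid genes had 995.0 CPM in rule-positive and 693.5 CPM in quiet cells, endothelial genes 36.5 and 21.0 CPM and T or NK cell genes 34.7 and 23.1 CPM, with log2 ratios of 0.52, 0.80 and 0.59. The intervals of these 3 ratios, which cover counting error only, lay above 0, and the part of such RNA in the results was not tested beyond the values below. A list of 13 Kupffer cell and macrophage genes was at 0 in 286 of 302 rule-positive and 274 of 289 quiet cells, with 6 and 7 of the genes at 0 in every cell. The 13 stellate and fibroblast genes were at 0 in 274 and 249 cells, and the 15 endothelial genes in 172 and 193 cells. Sums for 16 T or NK cell genes ran from 0 to 13.1 per 10000 in rule-positive and from 0 to 2.81 in quiet cells, with none of the genes at 0 throughout. Neutrophil genes (12) had medians of 1.49 and 1.60 per 10000, monocyte and dendritic genes (14) 1.45 and 1.31, and B and plasma cell genes (13) 0.765 and 0.714. Erythroid genes (12) had medians of 4.72 and 5.34 per 10000, but the highest rule-positive cell reached 480.6, where the next had 51.1 and the highest quiet cell 51.5. At least 3 UMIs of leukocyte genes were present in 159 rule-positive and 110 quiet cells. Without the cells with at least 3 leukocyte UMIs, the mitosis ratio given below was as large (median 3.28, 143 pairs).

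Each library had between 80927744 and 136110607 UMIs, and the 48 h library had the fewest. By the same rule, rule-positive cells made up 12.6% of P14 hepatocytes (265 of 2106), 0.432% of adult control hepatocytes (4 of 925), 14.6% at 24 h (171 of 1170) and 9.34% at 96 h (72 of 771). No rule-positive 48 h cell shared its barcode with a gated hepatocyte of another library; other barcodes were not compared. P14 stood apart from the rest: Xist was detected in 2105 of its 2106 hepatocytes, whereas the other 4 libraries had 0 or 1 Xist UMI and a Y-linked UMI in 88.0% to 96.0% of hepatocytes. Counts of genes and lists from tests that used P14 are therefore also given without it.

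**Figure D1:**
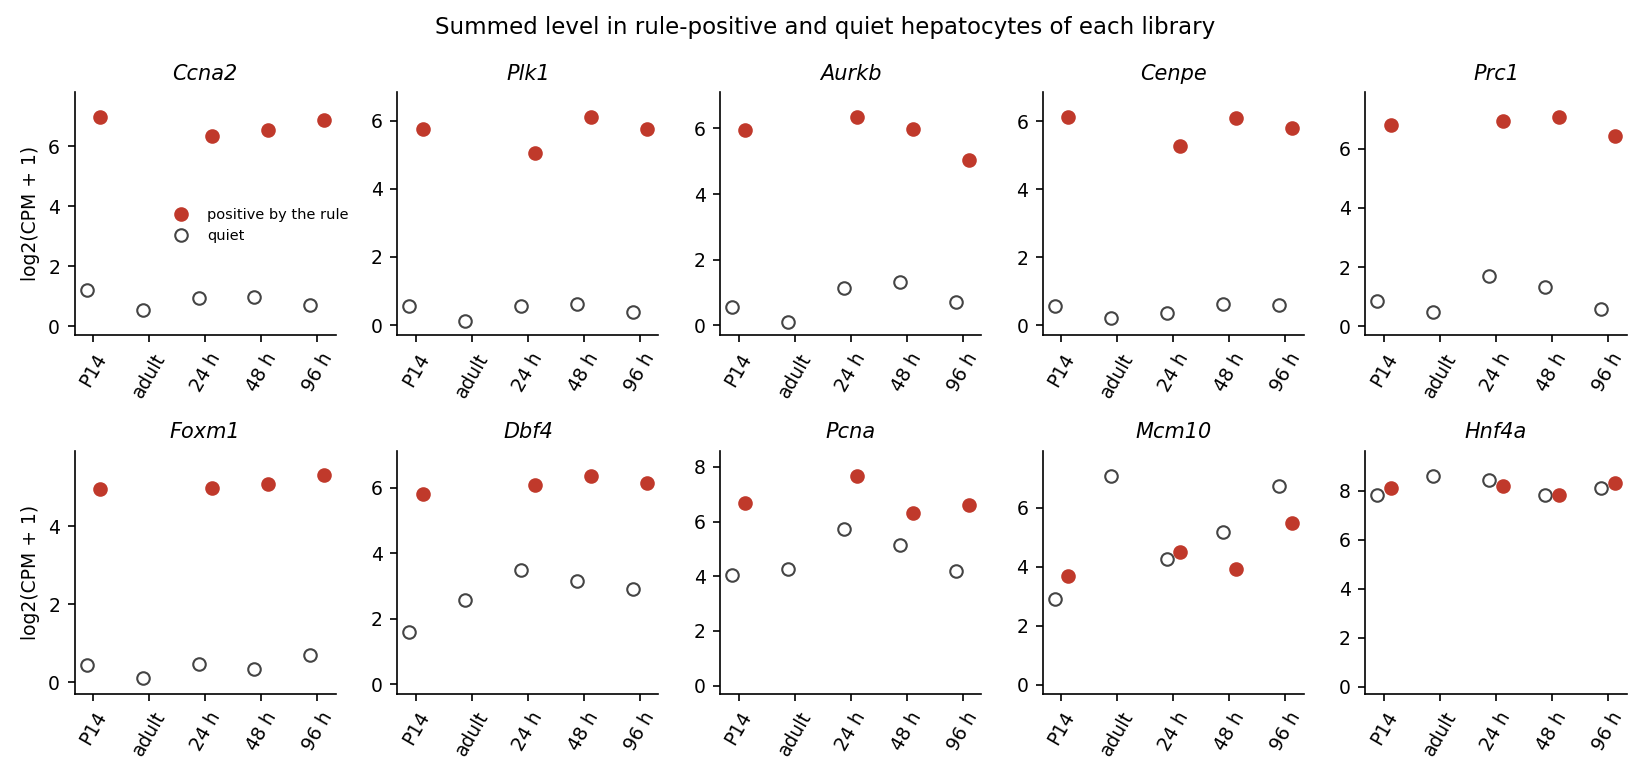
Levels of 10 genes, as log2(CPM + 1), in all rule-positive (filled) and all quiet (open) hepatocytes of each library, 1 point per library and class; the 4 rule-positive cells of the adult control are not drawn. Mitosis genes in the upper row and Foxm1 and Dbf4 are far higher in the rule-positive cells of all 4 libraries, Mcm10 is lower in those of 48 h and 96 h only, and Hnf4a is similar in both classes. Among quiet cells Mcm10 is highest in the adult control.

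At 48 h nearly all measured genes of mitosis were higher in rule-positive cells, and none of the 10 rule genes was counted among them. Of 128 measured genes on 6 mitosis lists, 118 were at least 1.5-fold higher, none was 1.5-fold lower and the median log2 ratio was 3.21. Of all 7312 genes with at least 10 CPM in either class, 1402 (19.2%) were at least 1.5-fold higher and 167 (2.28%) at least 1.5-fold lower. Genes near 0 in quiet cells could enter these counts only through the rule-positive class, which set their direction in advance. Summed over all 139 genes of the 6 lists, rule-positive cells had 7968 CPM and quiet cells 1712 CPM (log2 2.22). Ratios are log2((CPM + 1)/(CPM + 1)) of rule-positive over matched quiet cells, on summed counts. The rule was applied to these cells, so the ratios are a description with no test, and their intervals cover counting error only. The median over all 7312 genes was 0.229, against 0.004 when libraries were scaled by trimmed means (TMM), so each ratio is best read against that shift. With TMM scaling 761 genes were past the fold upward and 445 downward, so higher genes made up 63.1% of those past the fold where they made up 89.4% without it.

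All 22 mitotic kinases, cyclins and their regulators were past the fold, with a median of 3.88. Ccna2, cyclin A2, had 96.8 CPM (782 UMIs) in rule-positive and 0.850 CPM (6 UMIs) in quiet cells, a log2 ratio of 5.73. Plk1, the polo-like kinase of mitotic entry, had 71.1 and 0.567 CPM (log2 5.52). Aurkb, the kinase of the chromosome passenger complex, had 63.5 and 1.42 CPM (4.74), and Aurka, a spindle pole kinase, 88.8 and 3.26 CPM (4.40). Ccnb2, whose start region is shown above, had 108.9 and 3.68 CPM (4.55). The 271 quiet cells together held 4 to 26 UMIs of each of these transcripts.

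Kinetochore and checkpoint genes were past the fold in 29 of 29 cases, with a median of 2.93. The sum of all 32 genes of the list had a log2 ratio of 2.65. Cenpe, a kinesin of the kinetochore, had 69.8 and 0.567 CPM (log2 5.50). Knl1, the scaffold that recruits the spindle checkpoint, had 258 UMIs in rule-positive and none in quiet cells, at least 75.2-fold higher against a floor of 3 UMIs in the quiet cells, or at least 60.7-fold by the lower limit of the 95% interval of the ratio. Chromosome passenger, cohesin and condensin genes were past the fold in 17 of 17 cases (median 3.35, log2 2.57 for the sum of all 18). Among them Esco2, which acetylates cohesin as DNA is copied, had the largest ratio of all genes outside the rule with at least 20 CPM, at 110.8 and 0.567 CPM (895 and 4 UMIs, log2 6.16, interval of the ratio 76.2 to 719.7). Cdca8 had 73.4 and 1.84 CPM (4.71), and Incenp, its partner in the passenger complex, 34.1 and 1.28 CPM (3.95).

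Of 34 spindle and kinesin genes 30 were past the fold, with a median of 3.51. Hmmr had 101.9 and 0.708 CPM (log2 5.91), Ckap2l, a spindle pole protein, 92.3 and 1.13 CPM (5.45), and Kif20a, a kinesin of the central spindle, 71.8 and 0.850 CPM (5.30). Cytokinesis genes had the highest median of the lists, 4.29, with 15 of 18 past the fold. By sums over all 22 genes their log2 ratio was 2.01, below the 3.34 of kinases and cyclins. Prc1 had 141.4 and 1.56 CPM (5.80). Anln, anillin, which organises the contractile ring, had 424 UMIs in rule-positive and 3 in quiet cells, a ratio of 123.6 (interval 42.0 to 601.7). Of 13 mitotic exit and ubiquitin genes 10 were past the fold (median 1.26), led by Cdca3, a trigger of mitotic entry, with 269.1 and 8.78 CPM (4.79), and Ube2s, which extends ubiquitin chains on mitotic proteins, with 307.5 and 44.0 CPM (2.78).

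**Figure D2:**
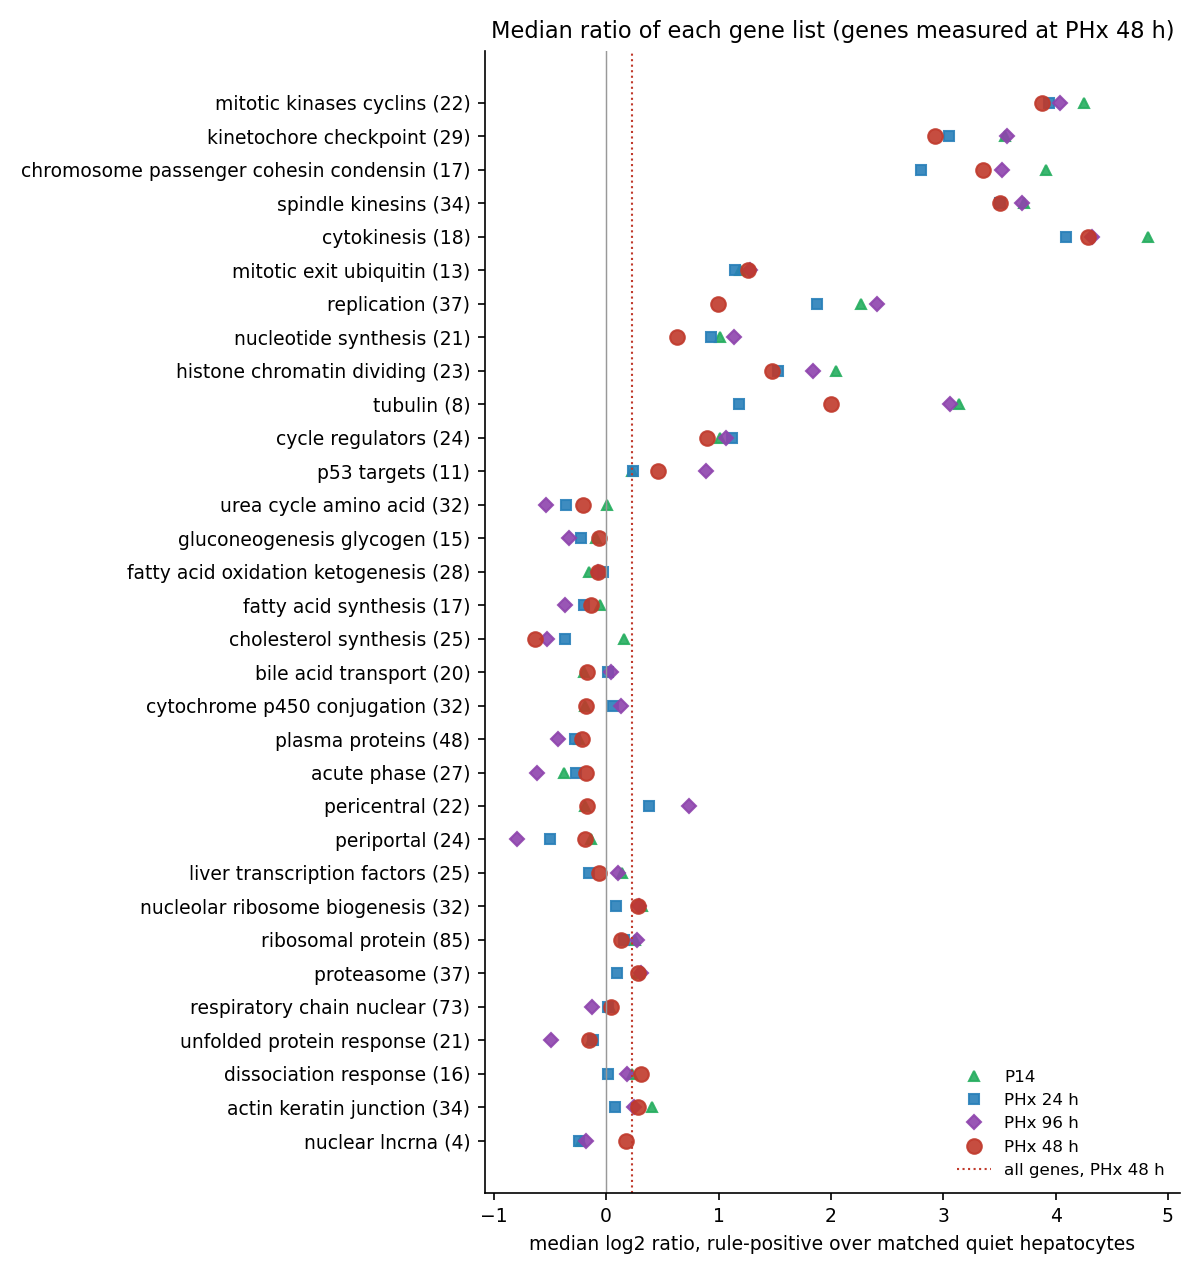
Median log2 ratio of each gene list, rule-positive over matched quiet hepatocytes, in 4 libraries (number of genes measured at 48 h in brackets); the dotted line is the median of all genes at 48 h (0.229). The 5 mitosis lists at the top lie far right of that line in each library, replication is lowest at 48 h (0.99), and pericentral and periportal lists separate at 24 h and 96 h but not at 48 h or in P14.

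Replication genes stood less far above quiet cells than mitosis genes. Of 37 measured, 29 were at least 1.5-fold higher and 1 lower, with a median of 0.99. Dbf4, the activator of the kinase that fires replication origins, had 84.7 and 7.36 CPM (log2 3.36), Fen1, which trims Okazaki fragments, 39.6 and 8.78 CPM (2.06), and Pcna, the sliding clamp, 80.9 and 33.4 CPM (1.25). Mcm6, whose start region is shown above, had 68.3 CPM over all rule-positive and 42.3 CPM over all quiet cells. Mcm10, an origin factor, was the 1 lower gene, with 14.0 and 35.6 CPM (log2 -1.29). Over all quiet cells, by library, Mcm10 varied widely, with its lowest level in P14 (6.45 CPM) and its highest in the adult control (134.6 CPM). Whether its lower level at 48 h bears on replication was not tested, nor was the reason for its course. At equal depth, 28.7% of quiet and 58.9% of rule-positive cells had UMIs of at least 3 replication genes. So did 51.1% of 526 leukocyte-type barcodes with no UMI of the 10 rule genes, and the list summed to 886.1 CPM in the free RNA against 560.1 CPM in quiet cells. The quiet share was thus below that of these barcodes, which may express such genes themselves. An empty droplet held a median of 287 UMIs and a quiet cell 31756. How much of the quiet share came from free RNA was not tested. Against quiet cells with at most 1 replication gene, a choice that by itself raises the ratio of these genes, the median of the list was 1.71.

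Of 21 nucleotide synthesis genes 11 were past the fold (median 0.63). Rrm2, the cycle-dependent subunit of ribonucleotide reductase, had 116.2 and 3.68 CPM (log2 4.65), and Tyms, thymidylate synthase, 66.6 and 14.3 CPM (2.14). Histone and chromatin genes of dividing cells were past the fold in 21 of 23 cases (median 1.48), with Hmgb2, a chromatin protein, at 259.7 and 15.6 CPM (3.98). Tubulins, the subunits of spindle microtubules, were past it in 6 of 8 cases (median 2.00). Tubb4b had 531.0 and 87.8 CPM (2.58) and Tubb6 199.7 and 19.8 CPM (3.27). Klf6, an early response factor, had 38.4 and 8.07 CPM (2.12), and Hsp90aa1, a chaperone, 768.5 and 307.9 CPM (1.32), and both are on a list of genes that respond to tissue dissociation. Of the 16 measured genes of that list 6 were past the fold upward and none downward (median 0.31), and their sum was 2431 CPM in rule-positive and 1595 CPM in quiet cells.

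Regulators of the cycle were mixed. Of 24 measured, 14 were past the fold upward and 1 downward (median 0.90). Foxm1 had 258 UMIs in rule-positive and 2 in quiet cells, a ratio of 112.8 (interval 30.9 to 936.4), and Cdkn2c, an inhibitor of the early cyclin kinases, 97.1 and 8.92 CPM (log2 3.31). Ccnd1, cyclin D1, which drives entry into the cycle, was the 1 lower gene, with 99.2 and 168.1 CPM (log2 -0.76). Mybl2 had 2 UMIs in rule-positive and none in quiet cells. Cdkn1a, the p53-induced inhibitor, had 101.8 and 48.2 CPM (1.06), and it was 1 of 3 genes past the fold among 11 measured p53 targets (median 0.46).

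Genes of cholesterol synthesis and uptake had the lowest median of the metabolic lists in rule-positive cells. Of 25 measured, 13 were at least 1.5-fold lower, none was 1.5-fold higher and the median was -0.64 (-0.86 with TMM scaling). Mvd, of the mevalonate pathway, had 11.3 and 33.1 CPM (log2 -1.48), Lss, which closes the sterol rings, 23.7 and 62.6 CPM (-1.37), and Idi1, an isomerase of the pathway, 227.5 and 506.6 CPM (-1.15). Insig1, which retains the sterol sensor in the endoplasmic reticulum, had 245.7 and 565.0 CPM (-1.20). Together the 25 genes had 5021 CPM in rule-positive and 7441 CPM in quiet cells (log2 -0.57), and by such sums fatty acid synthesis genes ran about as low, with 2507 and 3759 CPM (-0.58).

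Of 17 fatty acid synthesis genes 6 were past the fold downward (median -0.13), among them Thrsp, a lipogenic regulator (36.8 and 81.3 CPM, log2 -1.12), and Scd1, the stearoyl desaturase (922.1 and 1832 CPM, -0.99). Urea cycle and amino acid genes had 4 of 32 past the fold downward and 1 upward (median -0.21). Cps1, the first enzyme of the urea cycle, had 1645 and 2414 CPM (log2 -0.55), and Agxt, which detoxifies glyoxylate, 115.0 and 224.2 CPM (-0.96). Past the fold downward were 3 of 48 plasma protein genes (median -0.21) and 2 of 27 acute phase genes (-0.18), and none of either upward. Of 32 cytochrome P450 and conjugation genes 1 was past it upward (-0.18), and of 28 fatty acid oxidation genes 0 were past it (-0.07). Over all genes 2.28% were past the fold downward and 19.2% upward. The medians of these lists too lay below that of all genes. Ribosomal protein genes had a median of 0.13 and nuclear respiratory chain genes of 0.04, both below 0 with TMM scaling (-0.09 and -0.18).

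The lowest ratios among single genes were ranked over those with at least 20 CPM in quiet cells, Gm and Rik genes left out. They were those of Hsd3b5, a steroid dehydrogenase of adult liver, with 6.81 and 44.0 CPM (log2 -2.53), and Elovl3, which lengthens fatty acids, with 23.7 and 90.1 CPM (-1.89). Hsd3b5 and Sult2a8 (74.6 and 176.6 CPM, -1.23) have near-identical relatives, so their counts are uncertain. All quiet adult control cells had 180.7 CPM of Hsd3b5 and 256.4 CPM of Elovl3. For these 2 genes the rule-positive cells were thus farther from the adult control level than the quiet cells. For Mvd (16.8 CPM in quiet adult control cells), Lss (32.7 CPM) and Insig1 (336.2 CPM) they were nearer to it than the quiet cells of 48 h. Car3, a carbonic anhydrase of adult liver, followed the same order within the library, with 181.0 and 420.5 CPM (-1.21), as did Keg1, an acyltransferase relative, with 24.0 and 68.5 CPM (-1.48). In the pairs of the other libraries the log2 ratio of Elovl3 was 0.00 in P14, where it had no UMI in either class, -0.28 at 24 h and -0.01 at 96 h.

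The 3 libraries that the choice of members did not use showed which of these differences recurred. Counts were summed per library and class in P14, 24 h and 96 h and tested with edgeR's quasi-likelihood test, with the library as a block and Benjamini-Hochberg adjustment over 9736 genes. Classes there were set by the same 10 genes, which were left out of the fit. The p-values measure the spread of the difference over 3 libraries of different groups, not over animals of 1 group. Rule-positive cells were higher in 1048 genes (10.8% of those tested) and lower in 1080 (11.1%), or 845 and 653 without P14. Markers of other cell types moved with the class here too. In P14 cholangiocyte genes summed to 201.6 CPM in rule-positive and 5.80 CPM in quiet cells, B and plasma cell genes to 50.3 and 4.79 CPM, and shared leukocyte genes to 66.1 and 22.5 CPM. Cholangiocyte genes ran the other way at 24 h (50.6 and 135.6 CPM) and 96 h (61.3 and 180.8 CPM), as did endothelial genes at 24 h (17.1 and 47.0 CPM). Erythroid genes had 958.9 and 239.8 CPM in P14 and 969.2 and 252.3 CPM at 96 h, and without the cells over 20 erythroid UMIs per 10000, a limit chosen after the data were seen, edgeR called 1105 genes higher and 1155 lower. The part of the other cell types in these calls was not tested. Of the 135 mitosis genes tested, 120 were higher and none lower (median 3.96), and of 45 replication genes 44 were higher and none lower (median 2.00). Without P14 these were 117 of 132 and 39 of 43. Here too a gene could pass the filter on low counts through the rule-positive class alone. Of the 1402 genes past the fold upward at 48 h, 737 were called higher here, which is 52.6% of them and 70.3% of the 1048, and 2 were called lower (634 and 2 without P14). Of the 167 past it downward, 120 were called lower (71.9% of them, 11.1% of the 1080) and none higher (102 and none without P14). These shares set unlike measures side by side. The 48 h sets used a 1.5-fold limit on CPM without TMM, and the calls here an adjusted p with TMM. With TMM scaling, 761 genes were past the fold upward at 48 h and 445 downward.

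Esco2 rose in all 3 libraries, from 0.378 to 66.1 CPM in P14, from 1.67 to 168.0 at 24 h and from 0 to 130.3 at 96 h. Its mean log2 difference was 6.94 ± 0.25 (SE, edgeR adjusted p = 1.99e-08). Each SE was derived as the absolute log2 difference over the square root of edgeR's F statistic, not measured as a spread. Plk1 rose from 0.505 to 53.1 CPM in P14, from 0.278 to 31.9 at 24 h and from 0.632 to 53.6 at 96 h (6.35 ± 0.25, edgeR adjusted p = 3.87e-08). Dbf4 rose from 1.89 to 54.6, from 11.4 to 66.8 and from 6.32 to 69.7 CPM (3.28 ± 0.29, edgeR adjusted p = 1.51e-05). For each of these 3 genes, every rule-positive value lay above every quiet value. Esco2 and Plk1 had at most 1.67 CPM in quiet cells and could pass the filter through the rule-positive class alone. That set their direction in advance, so their p-values are no separate support. Pcna rose from 17.3 to 102.4, from 49.8 to 204.0 and from 18.3 to 95.5 CPM (2.08 ± 0.13, edgeR adjusted p = 1.01e-06), and its level in quiet cells at 24 h was the highest of the 3. Klf6 rose by 1.45 ± 0.22 on the log2 scale (edgeR adjusted p = 0.000768), Hsp90aa1 by 1.21 ± 0.14 (adjusted p = 0.000108) and Tubb4b by 2.69 ± 0.42 (adjusted p = 0.000959). Of the 22 genes tested on the dissociation list of Klf6 and Hsp90aa1, 3 were higher and 4 lower (median -0.17), or 5 and 2 with library sizes in place of TMM and 2 and 4 without P14. Cdkn1a had a difference of 0.83 ± 0.28 (edgeR adjusted p = 0.0568) and did not pass, whereas without P14 it did (1.34 ± 0.23, adjusted p = 0.000116). The other genes of this paragraph passed without P14 as well.

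Of the cholesterol list, 12 of 25 genes were lower in these libraries and none higher, with a median of -0.40. Mvd fell by 1.32 ± 0.24 on the log2 scale (edgeR adjusted p = 0.00282), Lss by 1.11 ± 0.18 (adjusted p = 0.00134) and Insig1 by 0.86 ± 0.13 (adjusted p = 0.000876), whereas Idi1 did not pass (-0.37 ± 0.19, adjusted p = 0.203). Without P14, 16 of the 25 were lower (median -0.67), Idi1 among them (-0.67 ± 0.13, edgeR adjusted p = 0.000573). In CPM, Insig1 was 51.9 in rule-positive and 68.1 in quiet P14 cells, 344.0 and 457.5 at 24 h, and 273.6 and 581.1 at 96 h. It was lower in the rule-positive cells of each library, by different amounts. The ratio of the whole list was positive in P14 (median 0.16), where its genes ran at 1441 CPM in quiet cells, and negative at 24 h (-0.37) and 96 h (-0.53). With library sizes in place of TMM, 6 of the 25 genes were lower (median -0.16), so the size of this fall depends on the scaling.

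Most secreted and periportal genes also fell over the tested libraries, by amounts that differed between them. Periportal genes were lower in 23 of 24 cases (median -0.79), plasma protein genes in 45 of 48 (-0.55) and urea cycle and amino acid genes in 27 of 32, with 1 higher (-0.54). Without P14, 23, 38 and 25 of them were lower, and with library sizes in place of TMM 17, 26 and 14. At 48 h the medians of these lists with TMM scaling were, in the same order, -0.40, -0.43 and -0.43. By library without TMM (P14, then 24 h, then 96 h), the median ratio of periportal genes was -0.14, -0.50 and -0.80. That of plasma protein genes was -0.24, -0.28 and -0.43. Urea cycle and amino acid genes had 0.01 in P14, where 16 of 31 lay above 0, and -0.35 and -0.53 at 24 h and 96 h. Over all genes, library sizes called 2341 genes higher and 335 lower. Ribosomal protein genes had 2 higher and 1 lower of 90 with TMM (1 and 0 of 89 without P14) and 29 higher with library sizes, and pericentral genes 1 higher and 4 lower of 25 against 7 higher and none lower (9 higher and 1 lower with TMM without P14), so no direction is given for either list. Of the genes named above as lower at 48 h, Hsd3b5 (edgeR adjusted p = 0.154), Elovl3 (0.109), Mcm10 (0.621), Ccnd1 (0.209) and Sult2a8 (0.354) did not pass here. Car3 did (-0.79 ± 0.09, edgeR adjusted p = 0.000108), as did Keg1 (0.000866), Thrsp (0.00014), Scd1 (0.00165), Cps1 (0.00163) and Agxt (0.00069). Each of these genes stayed on its side of the threshold without P14.

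Whether the 48 h difference departed from that of the other libraries was tested as an interaction in edgeR, in which the lone 48 h pair is assumed to vary like the others. Of 10249 genes none was called (0.0%), with 422 at an unadjusted p under 0.05 and a smallest adjusted p of 0.176. DESeq2 called 1 gene on the same counts, Sult2a8, which was lower at 48 h. With no filter on low counts edgeR called 7 genes upward and 60 downward, and it called 2 downward in cells thinned to 5000 UMIs and 3 with library sizes. Leaving out P14 gave 9 upward and 26 downward, leaving out 24 h 1 downward and leaving out 96 h 3 downward. Whether single genes departed at 48 h thus depended on the filter, the scaling and the libraries used. The list medians nevertheless differed in size: replication was 0.99 at 48 h, 2.26 in P14, 1.88 at 24 h and 2.41 at 96 h, a difference that was not tested for the list. Hsd17b13, a lipid droplet enzyme on the periportal list, had 185.6 and 92.9 CPM at 48 h (log2 0.99) but fell by 0.55 ± 0.12 elsewhere (edgeR adjusted p = 0.00722), and the departure did not pass (adjusted p = 0.435).

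Rule-positive cells at 48 h were not uniform. Grouped by their level of the 10 genes, 46 cells had 3 to 6 per 10000, 69 had 6 to 12 and 187 had 12 or more, and the 6 mitosis lists, which the rule genes belong with, were higher in each (medians 1.89, 2.94 and 3.42 over all quiet cells). Replication genes did not follow: their medians were 0.76 in the cells between the classes, then 1.17, 1.66 and, in the highest group, 0.58. Pcna had 34.6 CPM in quiet cells, 76.9 in the cells between, 111.4 and 151.3 in the next groups and 42.7 in the highest. Pclaf, a partner of the Pcna clamp, took the same course, with 0.678, 18.1, 65.1, 127.5 and 36.9 CPM. Aurka, which the rule did not use, ran from 3.25 CPM in quiet cells to 114.6 in the highest group. Of 37 replication genes 29 were highest in the group with 6 to 12 per 10000 and 1, Dbf4, in the highest group. So were 11 of 21 nucleotide synthesis genes and 10 of 23 histone and chromatin genes in the group with 6 to 12. The share over all genes was not counted. Markers of other cell types also differed between these groups: from quiet cells to the highest group, endothelial genes had 21.3, 31.7, 20.6, 64.6 and 42.8 CPM, T or NK cell genes 23.3, 21.9, 66.4, 18.1 and 25.7 CPM, and erythroid genes 707.4, 825.7, 563.6, 535.5 and 1094 CPM. Their part in these courses was not tested.

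**Figure D3:**
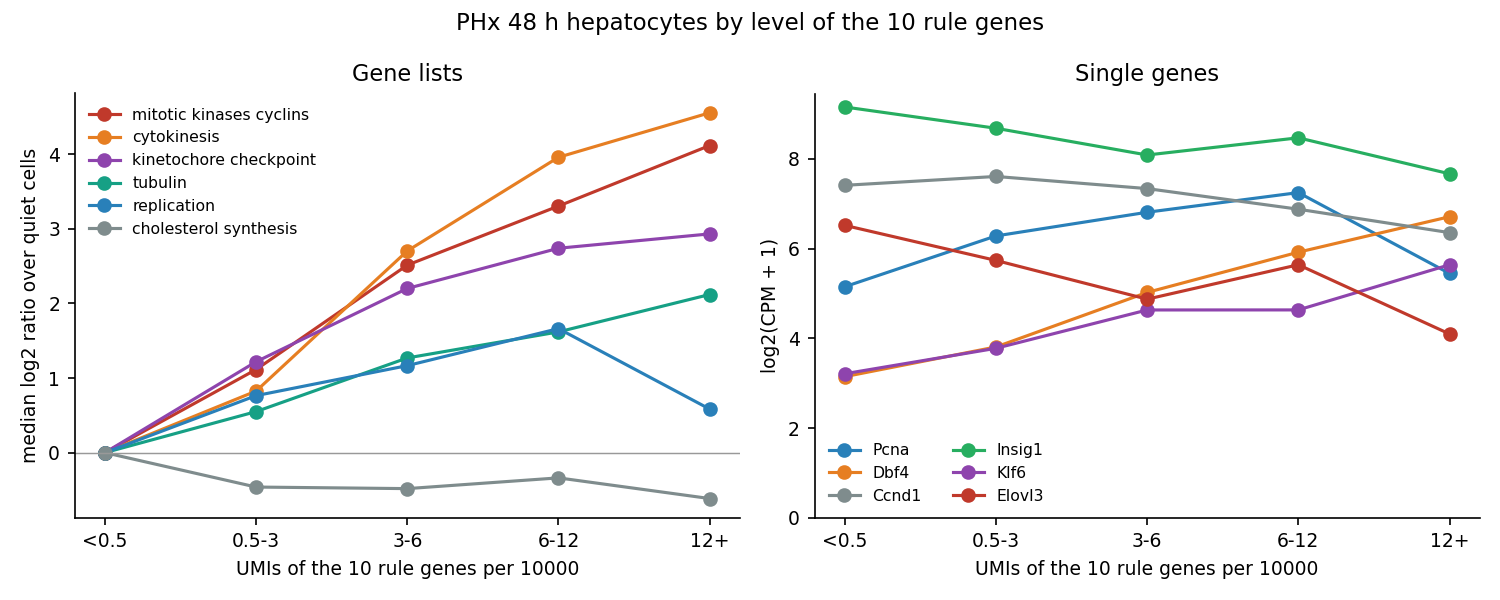
Median log2 ratio of 6 gene lists over quiet cells (left) and log2(CPM + 1) of 6 genes (right) in 48 h hepatocytes grouped by UMIs of the 10 rule genes per 10000 (289, 128, 46, 69 and 187 cells, left to right). Replication genes and Pcna are highest at 6 to 12 and lower at 12 or more, while mitosis lists and Dbf4 are highest at 12 or more and Ccnd1 is lowest there.

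Ccnd1 had 169.4 CPM in quiet cells, 194.4 in the cells between and 161.0, 116.8 and 81.0 in the 3 rule-positive groups. Insig1 had 570.7, 410.5, 271.2, 354.1 and 202.6 CPM in the same order, and Hsd3b5 45.9, 29.0, 17.4, 10.7 and 3.46 CPM. Hsd3b5 was thus lower in each group than in the one before it, and Insig1 in all but 1. Median depth in the 3 rule-positive groups was 44116, 43137 and 40917 UMIs.

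At equal depth 178 of the 302 rule-positive cells (58.9%, interval 53.2% to 64.5%) had UMIs of at least 3 replication genes and 70 had at most 1. Leukocyte-type barcodes with no rule gene UMI had a share of 51.1% with an overlapping interval (46.8% to 55.5%). The split is thus by detected UMIs. Paired on UMIs (70 pairs), Rrm2 was 2.15 higher on the log2 scale in the cells with replication genes and Hist1h2ap, a histone gene, 3.22 higher, while the median over the mitosis lists was 0.05. Single mitosis lists ran both ways, from -0.12 for mitotic exit genes to 0.28 for chromosome passenger, cohesin and condensin genes, and the rule genes had a median of -0.34. Markers of other cell types moved with this split: erythroid genes summed to 1664 CPM in the cells with and 571.6 CPM in those without replication genes, endothelial genes to 68.1 and 17.4 CPM, and T or NK cell genes to 23.5 and 51.7 CPM. Pericentral genes summed to 11740 and 9323 CPM (median 0.36) and periportal genes to 20610 and 19570 CPM (-0.09). The part of other cell types and of zone in the values of this split was not tested. The cells without replication genes had more Cdkn3, a phosphatase of cyclin kinases (131.9 and 57.8 CPM), Knstrn, a kinetochore partner (144.7 and 64.4), and Ccl9, a chemokine (505.4 and 229.8). They had less Insig1, with 163.8 CPM over all 70 against 296.0 over all 178, and less Elovl3, with 10.8 against 35.4. Among quiet cells the difference in Elovl3 was smaller and opposite, 94.1 CPM without and 76.0 with replication genes. Cells of this split were chosen by replication genes, so these values are a description, and Cdkn3, Knstrn and Ccl9 were picked after their values were seen.

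At 24 h the corresponding share with at least 3 replication genes was 94.2% of rule-positive and 45.8% of quiet cells, in P14 67.2% and 11.3%, and at 96 h 54.2% and 11.2%. The intervals of the 48 h rule-positive share (53.2% to 64.5%) and of the 24 h share (89.5% to 97.2%) did not overlap, nor did those of the quiet cells at 48 h (23.6% to 34.3%) and 96 h (8.68% to 14.0%). With 1 library per time these intervals cover counting error only, and a difference between times was not tested. Among leukocyte-type barcodes with no rule gene UMI the share ran from 46.7% (24 h) to 56.1% (96 h). Every quiet share, and the rule-positive one of 96 h, lay below that of these barcodes in its own library. The other rule-positive shares lay above it. The replication genes in the free RNA differed between libraries too, at 886.1 CPM at 48 h, 1273 CPM at 24 h, 463.7 CPM at 96 h and 556.5 CPM in P14, each above the level in the quiet cells of that library, and their part in these shares was not tested. Median depth was 42171.5 UMIs at 48 h and 26026 at 24 h before thinning.

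**Figure D4:**
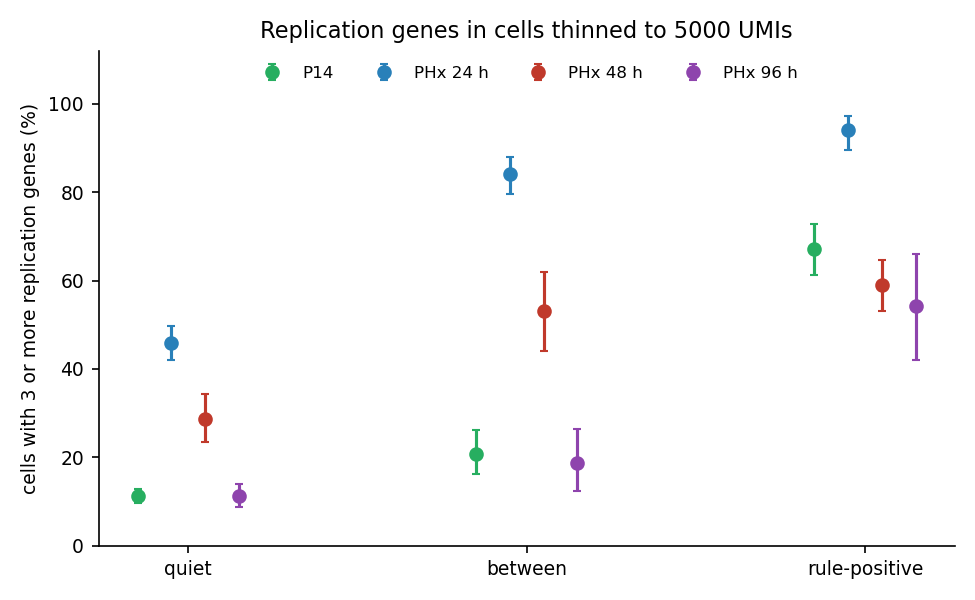
Share of hepatocytes with UMIs of at least 3 replication genes after thinning each cell to 5000 UMIs, by class and library, with 95% exact binomial intervals. Rule-positive cells at 48 h (58.9%) lie below those at 24 h (94.2%), and quiet cells at 48 h (28.7%) lie between those of 24 h (45.8%) and of P14 and 96 h (near 11%). The intervals cover counting error only, and a difference between times was not tested. Leukocyte-type barcodes with no rule gene UMI had shares from 46.7% (24 h) to 56.1% (96 h). Every quiet share, and the rule-positive one of 96 h, lies below that of these barcodes in its library.

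The share of rule-positive cells at 48 h was similar along the axis of the liver lobule. Hepatocytes of each library were ordered by the ratio of pericentral to periportal gene sums and divided into 3 equal groups. At 48 h rule-positive cells made up 40.4% (97 of 240, interval 34.2% to 46.9%) of the most periportal cells, 43.9% (105 of 239) of the middle and 41.7% (100 of 240, interval 35.4% to 48.2%) of the most pericentral. At 24 h the shares were 7.44%, 14.6% and 21.8%, at 96 h 3.89%, 6.62% and 17.5%, and in P14 14.0%, 11.4% and 12.4%. Intervals of the outer groups did not overlap at 24 h (5.04% to 10.5% and 17.8% to 26.2%) or at 96 h (1.88% to 7.04% and 13.1% to 22.7%). The zone lists themselves moved with the class at those times: pericentral medians were 0.38 and 0.74 at 24 h and 96 h and periportal medians -0.50 and -0.80, against -0.17 and -0.18 at 48 h and -0.19 and -0.14 in P14. Whether cells lay in another zone or changed these genes as they divided cannot be told apart in dissociated cells. Glul, glutamine synthetase of the cells at the central vein, had 204.5 and 145.7 CPM at 48 h (log2 0.49), with a UMI in 116 rule-positive and 118 quiet cells of the 271 pairs. Median depth was 40064.5 UMIs in the periportal and 32631 in the pericentral cells of the library.

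**Figure D5:**
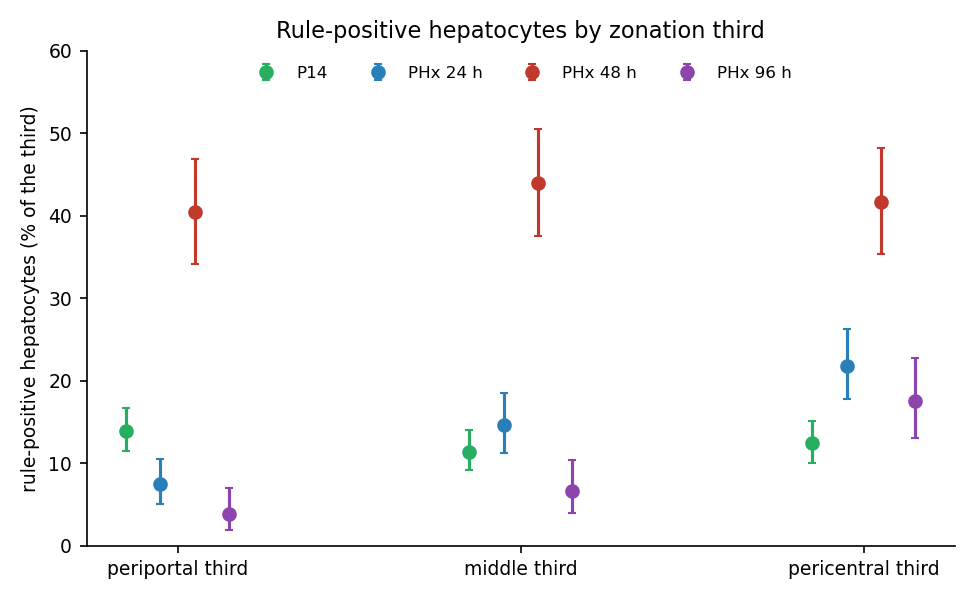
Rule-positive hepatocytes as a share of the periportal, middle and pericentral groups of each library, with 95% exact binomial intervals. The 48 h shares are level between 40.4% and 43.9%, while those of 24 h and 96 h are highest in the pericentral group.

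Globin genes showed how much single cells can weigh. Hba-a1 had 112.6 CPM in rule-positive and 60.2 CPM in quiet 48 h cells (log2 0.89), but without the cells over 20 erythroid UMIs per 10000 (12 rule-positive and 6 quiet) the ratio was -0.067 (log2). In the other libraries its edgeR difference went from 2.48 to -0.045 without such cells, of which P14 had 1 rule-positive cell, at 778.6 per 10000. Hba-a1 and Hba-a2 are near-identical copies. At 48 h 1424 genes were past the fold upward and 170 downward without those cells, so the counts above did not rest on them.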

How the data were processed

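Per the submitters' processing notes, reads were converted with bcl2fastq 2.17.1.14 and processed with Cell Ranger on mm10, with Seurat 3.1 also named. The authors deposited, for each of the 5 libraries, a matrix of raw UMI counts per gene and barcode with empty droplets included. The headers declare whole numbers. The gate, the rule and the pairing are given in the report (UMIs within 0.1 log10, without replacement). Free RNA was read from barcodes ranked 20001 to 60000. Scrublet, run in scanpy 1.11.5, scored 4582 barcodes for doublets. The 168 with the highest scores (3.667%, a share set by the number of barcodes) were marked and kept. Counts were summed per class and expressed as CPM with a pseudocount of 1 CPM, after scripts were tested on simulated data. Intervals of ratios are exact conditional binomial intervals from scipy 1.17.1. The other libraries were fitted with edgeR 4.0.16 in R 4.3.3 (TMM, filter on low counts), with DESeq2 1.42.0 as an alternative. Both classes of a library share its animals, so the library was the block. Named genes were, per direction, the 15 largest ratios with at least 20 CPM, up to 4 per list, the 10 rule genes and 22 genes of known role. The members, the 43 gene lists and the rule were chosen with earlier results of these data known. PCR duplicates are collapsed by UMIs, and counting intervals cover no other error.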

Additional observations from a re-analysis of the deposited data

How the results depend on the processing

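At 48 h the counts of genes past the fold (1402 higher, 167 lower) were 2142 and 370 at a mitochondrial share of 10% to 20% (30 pairs), 761 and 445 with TMM scaling, 756 and 89 with a pseudocount of 10 CPM, 377 and 88 with a minimum of 50 CPM, and 511 and 31 with a 2-fold limit; 495 were lower in cells thinned to 5000 UMIs. The other settings moved neither count by more than 1.5 times. A minimum of 5% of UMIs from Alb, Apoa1 and Ttr left no pair and gave no value.

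The medians of the mitosis, replication and cholesterol lists (3.21, 0.99 and -0.64) kept their sign in all settings run. They were 3.38, 0.90 and -0.79 at 10% to 20% mitochondrial UMIs, 3.30, 0.91 and -0.55 for cells with at least 6 per 10000 and 5 genes, 3.28, 1.44 and -0.69 against quiet cells with no rule gene UMI, and 3.32, 1.71 and -0.66 against quiet cells with at most 1 replication gene. They were 3.14, 1.26 and -0.53 in thinned cells, 3.25, 1.05 and -0.61 with mitochondrial genes in the total, 3.07, 0.74 and -0.86 with TMM scaling, and 1.57, 0.65 and -0.56 with a pseudocount of 10 CPM. Means over cells gave 1.08 and -0.60 for replication and cholesterol. The mitosis median was 3.28 without cells with 3 leukocyte UMIs and 3.66 at a minimum of 50 CPM. Of the alternatives chosen after seeing the data, pairs within 0.02 log10 UMIs gave 3.17, 0.93 and -0.61, and leaving out cells rich in erythroid UMIs gave 3.23 for mitosis.

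In the other libraries (1048 genes higher, 1080 lower), DESeq2 called 617 and 687, cells thinned to 5000 UMIs 403 and 458, no library block 226 and 2, and library sizes in place of TMM, added after seeing the data, 2341 and 335; adding 48 h called 1627 lower. Leaving out 1 library gave 845 to 1071 higher and 653 to 1019 lower, the fewest without P14 in both directions. The departure at 48 h, with no gene called, had 1 lower gene with DESeq2, 7 higher and 60 lower with no filter, 2 lower in thinned cells and 3 lower with library sizes. Leaving out 1 library gave 0 to 9 higher and 1 to 26 lower, the most without P14. The cause of these shifts was not tested. No paired analysis by replicate number was possible because the labels give none.

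Single genes that changed sign were Etnppl (0.85) and Noc4l (-0.087) at 10% to 20% mitochondrial UMIs, and Slc1a2 (-0.42), Hba-a1 (-0.21) and Hba-a2 (-0.10) against quiet cells with at most 1 replication gene. Without cells rich in erythroid UMIs, so did Hba-a1 (-0.067), Hba-a2 (-0.066) and Hbb-bs (-0.021) at 48 h and Hba-a1 (-0.045) in the other libraries. Sox9 gave -0.65 to 0.77 there when 1 library was left out, the lowest without P14.

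Each class is 1 sum in 1 library per group, so depth limits the ratios of low genes and no spread between animals is known. A Mki67 UMI was present in 58.9% of rule-positive cells at equal depth and in 96.0% at full depth. The classes were set at full depth and on the rule genes together, so the lower share does not measure what the quiet class missed. Whether cycling cells went undetected among the quiet ones was not tested.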
